A study of Mus musculus with 18 samples.

Results

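Scavenger receptors are the uptake receptors of macrophages, and the 10 genes described here are Marco, Msr1, Cd36, Scarb1, Scarb2, Cd68, Mrc1, Cd163, Stab1 and Mertk. They were chosen by symbol, with differences between the groups of these libraries already known and with Marco as the leading gene, so their levels and differences are a description and not a test of the list. They are 10 of the 13598 genes with a value, and 9 of them passed the filter on low values and are among the 9707 genes tested. The exception was Cd163.

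RNA-seq was measured in peritoneal macrophages elicited with thioglycolate from C57BL/6-background mice, in 6 groups of 3 libraries. TLR4-WT mice carried the unchanged receptor, and in TLR4-K730R and TLR4-K810R mice, made by CRISPR knock-in, the named lysine of TLR4 was replaced by arginine. Cells of each genotype were either mock-treated or exposed for 6 h to 100 ng/ml of LPS, the bacterial ligand of TLR4. The age and sex of the animals and the number of mice behind a library are not given in the sources used here, and nothing says that the replicates came from separate animals, so p-values measure the spread between these libraries, which may be technical.

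Scavenger receptors bind modified lipoproteins, bacteria, dead cells and haemoglobin complexes rather than one ligand each. MARCO and MSR1 are class A receptors with a collagen-like stalk that bind bacteria and polyanions. CD36, SCARB1 and SCARB2 form class B, which handles fatty acids, lipoproteins and lysosomal cargo, and CD68 is a lysosomal glycoprotein used as a macrophage marker. MRC1 is the mannose receptor, CD163 takes up haemoglobin bound to haptoglobin, STAB1 clears acetylated lipoproteins and matrix proteins, and MERTK is a receptor kinase for apoptotic cells.

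The promoters of 8 of the 10 genes were found in the RefSeq promoter table for GRCm38.p6, and Msr1 and Scarb1 were not. The 250 bases before the start are printed for Marco (chr1:120505025-120505274, minus strand), the member that differed between genotypes, for Mrc1 (chr2:14229164-14229413, plus strand), with the steepest fall after LPS, and for Cd68 (chr11:69666171-69666420, minus strand), which holds both motifs. Capitals mark matches to the ETS core GAGGAA, whose reverse complement reads TTCCTC, and to the AP-1 consensus TGANTCA, each searched on both strands.
Marco: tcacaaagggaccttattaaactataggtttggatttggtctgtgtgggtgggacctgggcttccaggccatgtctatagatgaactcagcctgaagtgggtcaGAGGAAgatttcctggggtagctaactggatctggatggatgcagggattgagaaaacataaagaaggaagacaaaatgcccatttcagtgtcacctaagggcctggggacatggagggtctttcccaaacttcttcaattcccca
Mrc1: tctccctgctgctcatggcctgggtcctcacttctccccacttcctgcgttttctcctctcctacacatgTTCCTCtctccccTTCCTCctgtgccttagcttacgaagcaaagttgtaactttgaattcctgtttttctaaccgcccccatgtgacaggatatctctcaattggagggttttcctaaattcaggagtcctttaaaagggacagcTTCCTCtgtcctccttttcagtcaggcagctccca
Cd68: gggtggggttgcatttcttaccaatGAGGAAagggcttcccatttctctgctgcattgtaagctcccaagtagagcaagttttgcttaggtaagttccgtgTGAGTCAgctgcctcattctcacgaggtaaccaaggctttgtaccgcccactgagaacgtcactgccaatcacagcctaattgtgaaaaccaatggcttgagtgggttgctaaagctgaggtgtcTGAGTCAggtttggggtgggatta
The ETS core, of the kind bound by the macrophage factor PU.1, occurred once in Marco, 3 times in Mrc1, once in Cd68 and once in Stab1. It was thus in 4 of the 8 promoters, beside 23.3% of all 32851 promoters of this length. The AP-1 consensus occurred 2 times in Cd68 and in none of the other 7, beside 6.75% of all promoters. The E-box CACGTG was in none of the 8, beside 6.02% of all, and the NF-κB consensus matched in Scarb2 alone, beside 3.90% of all. Each window ends at a single RefSeq start of its gene, which in Cd36 and Scarb2 is not the outermost start in GENCODE. The first exon with the highest FPKM in the files began within 41 bases of that start in Mrc1, Scarb2, Stab1 and Mertk and 268 and 11130 bases downstream of it in Marco and Cd163. In Cd36 it began 13896 bases upstream of that start, at the start of another annotated transcript. The windows thus follow RefSeq starts, which are not always those with the most FPKM here, and Cd68 had no first exon listed. These are matches of letters in a fixed window and not binding sites.

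Levels are given in FPKM, fragments scaled to transcript length and to the library total, so they can be compared between genes. First-exon and last-exon events were summed for each gene and library, and the higher sum was used. In mock-treated TLR4-WT cells the order ran from Cd36 (982 ± 192, SD, n = 3) and Cd68 (671 ± 86.6) over Marco (141 ± 9.47) and Msr1 (84.5 ± 10.7) to Stab1 (56.2 ± 16.5), Scarb1 (48.4 ± 12.1), Scarb2 (41.0 ± 2.50), Mrc1 (26.9 ± 2.63) and Mertk (25.6 ± 5.75). The ranges of Stab1, Scarb1 and Scarb2 overlapped from one to the next, as did those of Mrc1 and Mertk. After LPS in the same genotype Msr1 (308 ± 82.7) stood above Marco (141 ± 8.15), and Cd36 (442 ± 95.7) and Cd68 (394 ± 7.54) overlapped at the top.

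**Figure D1:**
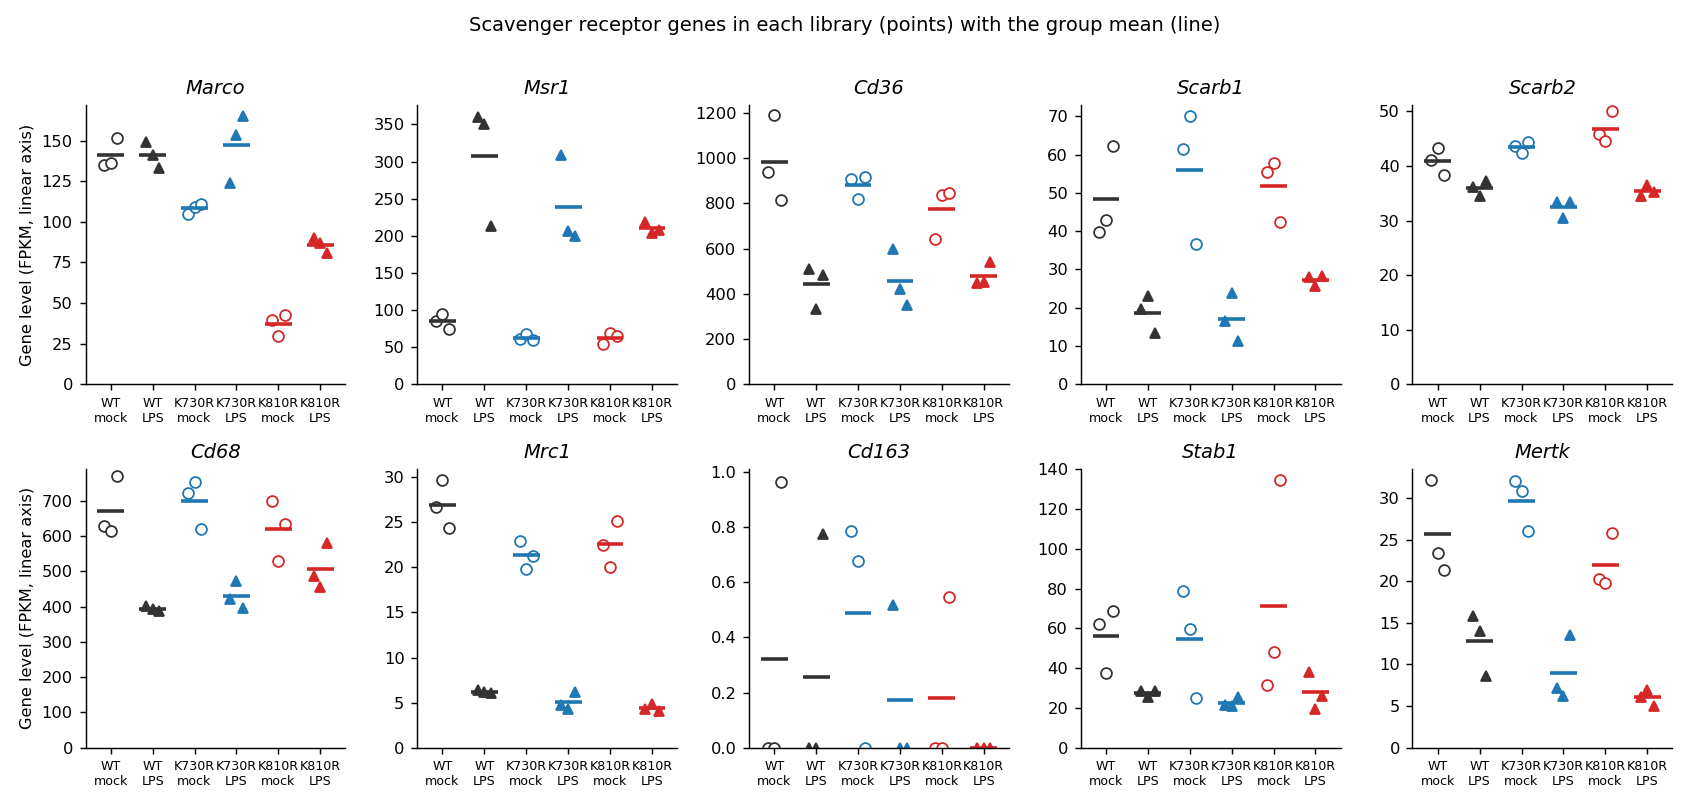
Level of each of the 10 genes in FPKM (linear axis from 0) in the 18 libraries, with 3 points per group and the group mean as a line, open circles for mock and filled triangles for LPS. The 3 TLR4-K810R mock libraries sit lowest for Marco, at 29.6 to 42.3 FPKM, and every LPS library lies above every mock library for Msr1.

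The libraries of all 6 groups listed macrophage genes. Of 7 macrophage markers, 6 had a value (Itgam had none), and Adgre1, which encodes F4/80, ranged from 148 to 271 FPKM and Csf1r, the M-CSF receptor, from 277 to 538 FPKM. The sum of the 6, mostly Lyz2, was lower with LPS in each genotype, at 14827 to 16415 FPKM in mock and 7974 to 10212 FPKM in LPS libraries of TLR4-WT, 14955 to 16340 and 8319 to 10447 FPKM in TLR4-K730R, and 13205 to 15488 and 9869 to 10847 FPKM in TLR4-K810R. The 6 did not move alike. Over all libraries Lyz2 (10375 to 13291 FPKM in mock, 5944 to 8754 FPKM with LPS) and Tyrobp (1823 to 2232 and 781 to 1058 FPKM) were lower with LPS. Fcgr1 was higher (26.7 to 51.7 and 160 to 412 FPKM), and Adgre1, Csf1r and Spi1 had overlapping mock and LPS ranges. The part of this sum in the LPS differences of the members was not tested. B cell, T cell, mast cell, dendritic cell, adipocyte and endothelial markers each summed to at most 4.61 FPKM in any library. The neutrophil list was carried by S100a8, at 22.1 to 45.1 FPKM in mock and 165 to 239 FPKM in LPS libraries, while Cxcr2 was at 0 in every group but the TLR4-K730R mock group. The part of neutrophil RNA in the LPS differences was not tested. Tlr4 itself lay between 10.4 and 12.5 FPKM on average in the mock groups and between 4.68 and 5.17 FPKM in the LPS groups, with overlapping ranges between genotypes, and its level cannot check a point mutation.

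Marco, the class A receptor with collagenous structure, was the member that differed most between genotypes. In mock-treated cells its level was 135, 136 and 152 FPKM in TLR4-WT, 104.7, 109 and 111 FPKM in TLR4-K730R and 39.2, 29.6 and 42.3 FPKM in TLR4-K810R. After LPS the libraries read 149, 141 and 133 FPKM in TLR4-WT, 124, 153 and 165 FPKM in TLR4-K730R and 89.9, 86.8 and 81.0 FPKM in TLR4-K810R. The mock libraries of the 3 genotypes did not overlap, and the TLR4-K810R libraries stayed below the TLR4-WT libraries with and without LPS.

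The mean level of Marco in mock-treated TLR4-K810R cells was 3.81-fold lower than in TLR4-WT, a difference of -1.91 ± 0.13 (SE) on the log2(FPKM + 1) scale. In limma this difference was past the adjusted p threshold of 0.01 and ranked 23rd lowest of 9707 genes. It was the 1 member called among 9 tested in this comparison, where 1.58% of all genes were called in either direction. In TLR4-K730R the mock difference was -0.38 ± 0.13 and was not called. With LPS the differences from TLR4-WT were 0.05 ± 0.13 in TLR4-K730R and -0.71 ± 0.13 in TLR4-K810R, and neither was called.

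The LPS difference of Marco was 0.00 ± 0.13 in TLR4-WT and 0.43 ± 0.13 in TLR4-K730R, neither of which was called, and Marco rose by 1.21 ± 0.13 in TLR4-K810R, from 37.0 ± 6.63 to 85.9 ± 4.52 FPKM (SD, n = 3), a 2.32-fold higher mean. With median-of-ratios scaling of the libraries these were 0.33, 0.84 and 1.47, and those of both mutants were called. The LPS response of TLR4-K810R exceeded that of TLR4-WT by 1.20 ± 0.18, and Marco was the 1 member called for this difference, where 0.124% of all genes were called. That call was kept in 9 of 25 settings, the main one included, and was lost when any 1 library of the comparison was left out other than mock replicate 3 of TLR4-K810R (1.05 to 1.25 without the 11 others). The lower mock level in TLR4-K810R was called in all 18 settings, at -1.76 to -2.02.

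Other genes moved in the same mock comparison, and their part in the level of Marco was not tested. Mesothelial and fibroblast markers, all 6 with a value, summed to 27.3 to 43.4 FPKM in TLR4-WT, 53.6 to 61.1 FPKM in TLR4-K730R and, in TLR4-K810R mock libraries, 99.8 to 231 FPKM, mostly from Col1a1 and Col1a2, while the mesothelial marker Msln was at most 1.19 FPKM. The 4 intestinal epithelial markers summed to 0.118 to 0.594, 6.04 to 30.5 and 9.01 to 45.8 FPKM in the same order, with Fabp1, Vil1 and Epcam at 0 in the TLR4-WT mock libraries. Adgre1 was at 199 to 253 FPKM in TLR4-WT and 148 to 192 FPKM in TLR4-K810R mock libraries, and Csf1r at 480 to 538 and 360 to 415 FPKM. Fcgr1 was at 47.4 to 51.7 and 39.9 to 45.8 FPKM. The ranges overlapped for Lyz2 (12085 to 13212 and 10375 to 12822 FPKM), Tyrobp (1823 to 2232 and 1899 to 2100 FPKM) and Spi1 (171 to 190 and 132 to 188 FPKM). Within TLR4-K810R the intestinal sum was 0.127 to 4.74 FPKM and the mesothelial and fibroblast sum 81.0 to 98.9 FPKM with LPS, both below their mock ranges, beside the higher Marco level with LPS, and their part in it was not tested. The 6 resident peritoneal macrophage markers summed to 16.8 to 20.7, 8.92 to 12.3 and 11.3 to 20.8 FPKM in mock-treated TLR4-WT, TLR4-K730R and TLR4-K810R. With LPS they summed to 17.5 to 37.7, 16.5 to 26.8 and 6.87 to 15.7 FPKM in the same order. Among them, Gata6 was at 1.13 to 1.47 FPKM in TLR4-WT and 4.23 to 10.9 FPKM in TLR4-K810R mock libraries, and Prg4 at 10.3 to 12.4 and 4.06 to 5.71 FPKM. Their part in the level of Marco was not tested. In bulk RNA, fewer cells of a type and less RNA per cell cannot be told apart.

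**Figure D2:**
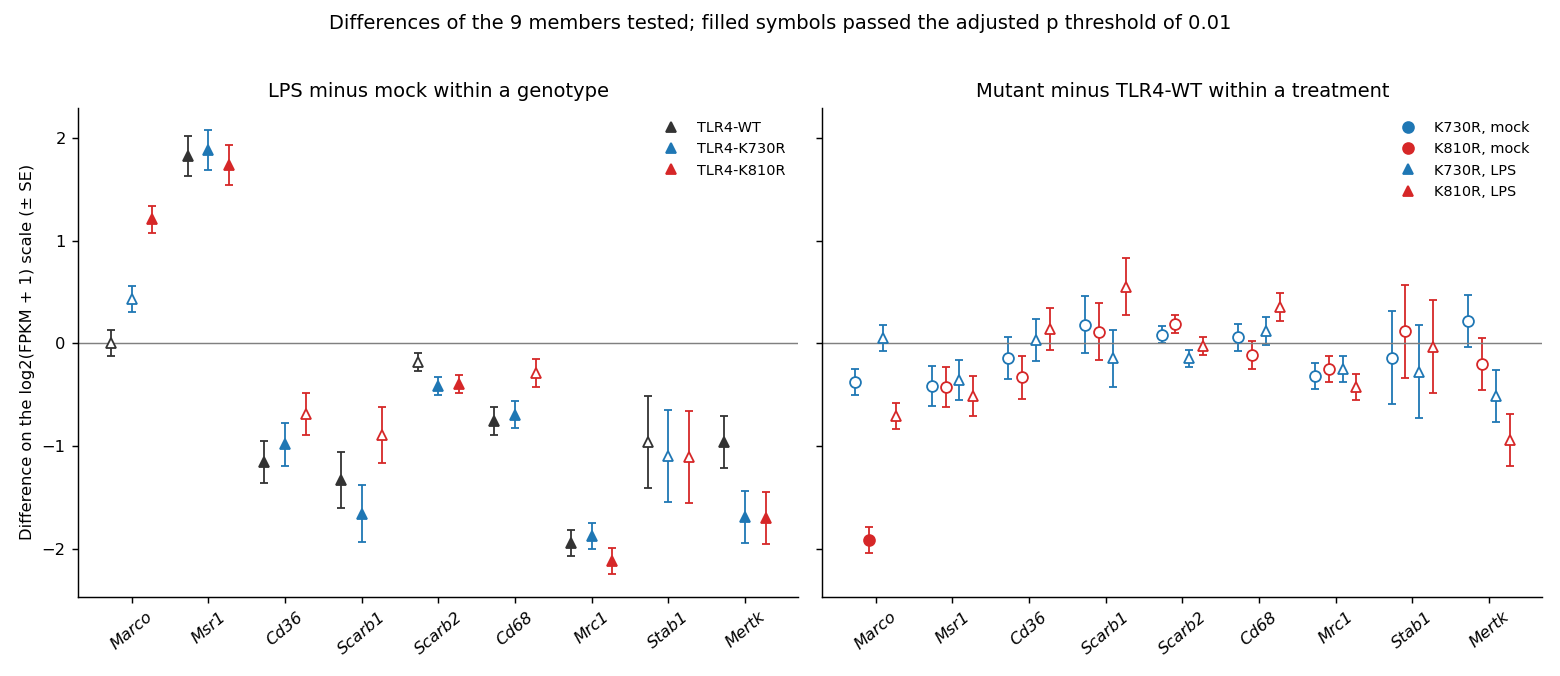
Differences of the 9 members tested on the log2(FPKM + 1) scale with the limma SE, LPS minus mock at left and mutant minus TLR4-WT at right, filled where the adjusted p passed 0.01. Msr1 lies at 1.73 to 1.88 in all 3 genotypes, Mrc1 at -1.88 to -2.12, and Marco in mock-treated TLR4-K810R at -1.91 is the one filled symbol among the genotype differences.

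Msr1, the class A receptor SR-A, was the member that rose with LPS in each genotype. Its mock level was 84.6, 95.1 and 73.7 FPKM in TLR4-WT, 61.1, 67.8 and 59.4 FPKM in TLR4-K730R and 54.3, 69.0 and 64.7 FPKM in TLR4-K810R. With LPS it was 361, 351 and 213 FPKM, 309, 206 and 200 FPKM, and 219, 203 and 207 FPKM in the same order. Every LPS library was above every mock library, and the mean was 3.65-fold, 3.79-fold and 3.35-fold higher with LPS in TLR4-WT, TLR4-K730R and TLR4-K810R. The differences were 1.82, 1.88 and 1.73 with an SE of 0.19 each. The mock libraries of both mutants lay below those of TLR4-WT, at -0.42 ± 0.19 in each, which was not called.

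In TLR4-WT cells 1 of the 9 members was called higher with LPS (Msr1) and 5 lower (Cd36, Cd68, Mrc1, Scarb1 and Mertk), while 10.4% of all genes were called higher and 23.9% lower. In TLR4-K730R 1 was called higher and 6 lower (the same 5 and Scarb2), beside 9.32% and 26.5% of all genes. In TLR4-K810R Msr1 and Marco were called higher and Mrc1, Scarb2 and Mertk lower, beside 9.08% and 19.7% of all genes. The median difference of the members was -0.96, -0.98 and -0.69 in TLR4-WT, TLR4-K730R and TLR4-K810R, beside -0.28, -0.36 and -0.26 for all genes tested. Median-of-ratios scaling moved the medians of all genes to -0.01, -0.04 and -0.03. Under it 52.2%, 53.5% and 51.5% of called genes were higher, in place of 30.4%, 26.1% and 31.5%. The members called were then 1 higher and 3 lower (Cd36, Mrc1 and Scarb1) in TLR4-WT, 2 higher (Msr1 and Marco) and 3 lower (Mrc1, Scarb1 and Mertk) in TLR4-K730R, and the same 2 higher and 2 lower (Mrc1 and Mertk) in TLR4-K810R. Of all genes tested, 15.5% were then called higher and 14.2% lower in TLR4-WT, 15.5% and 13.5% in TLR4-K730R, and 12.4% and 11.7% for TLR4-K810R. The scaled differences of Mrc1 were -1.65, -1.51 and -1.86, all called, and those of Msr1, also called, were 2.15, 2.29 and 2.0.

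Cd36, a class B receptor for oxidised lipoproteins and long-chain fatty acids, was the most abundant member in mock-treated cells. Its mock level was 939, 1192 and 816 FPKM in TLR4-WT, 908, 819 and 917 FPKM in TLR4-K730R and 644, 838 and 847 FPKM in TLR4-K810R. With LPS it was 510, 332 and 483 FPKM, 598, 420 and 349 FPKM, and 446, 451 and 543 FPKM in the same order. Mock and LPS libraries did not overlap within any genotype. The fall was -1.16 ± 0.21 in TLR4-WT and -0.98 ± 0.21 in TLR4-K730R, while the difference of -0.69 ± 0.21 in TLR4-K810R was not called. With median-of-ratios scaling the TLR4-K730R difference was -0.57 and no longer called.

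Scarb1, the receptor for high-density lipoprotein, was at 39.9, 42.9 and 62.2 FPKM in mock and 19.6, 23.2 and 13.4 FPKM in LPS libraries of TLR4-WT. The values were 61.4, 70.0 and 36.6 FPKM against 16.4, 23.8 and 11.3 FPKM in TLR4-K730R, and 55.5, 57.9 and 42.3 FPKM against 28.1, 25.7 and 28.2 FPKM in TLR4-K810R. LPS libraries were below mock libraries in each genotype. Scarb1 fell by 1.33 ± 0.28 in TLR4-WT and by 1.66 ± 0.28 in TLR4-K730R, and its difference of -0.89 ± 0.28 in TLR4-K810R was not called.

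Scarb2, the lysosomal membrane protein LIMP-2 that carries glucocerebrosidase, had the smallest SE of the members tested. It was at 41.2, 43.4 and 38.4 FPKM in mock and 36.1, 34.6 and 37.3 FPKM in LPS libraries of TLR4-WT. In TLR4-K730R the values were 43.6, 42.4 and 44.4 FPKM against 33.4, 30.4 and 33.5 FPKM, and in TLR4-K810R 45.9, 44.5 and 50.2 FPKM against 34.4, 36.5 and 35.2 FPKM. LPS libraries were lower in each genotype, with differences of -0.18 ± 0.09 (not called), -0.41 ± 0.09 and -0.39 ± 0.09. With median-of-ratios scaling these became 0.14, -0.01 and -0.13, none of them called, so the direction in TLR4-WT turned with the scaling.

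Cd68 was at 628, 614 and 771 FPKM in mock and 402, 394 and 387 FPKM in LPS libraries of TLR4-WT. In TLR4-K730R it was at 722, 752 and 619 FPKM against 421, 474 and 396 FPKM, and in TLR4-K810R at 699, 528 and 634 FPKM against 486, 455 and 579 FPKM. The mock and LPS libraries overlapped in TLR4-K810R and were apart in the other genotypes. Cd68 fell by 0.76 ± 0.13 in TLR4-WT and by 0.70 ± 0.13 in TLR4-K730R, and its difference of -0.29 ± 0.13 in TLR4-K810R was not called. With median-of-ratios scaling the values were -0.43, -0.28 and -0.02 and none was called. Its value rests on a last exon alone, since no first-exon event on its strand was listed.

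Mrc1, which binds mannose-rich glycans, had the steepest fall after LPS of the members. Its mock level was 26.7, 29.6 and 24.4 FPKM in TLR4-WT, 22.9, 19.8 and 21.2 FPKM in TLR4-K730R and 22.5, 20.0 and 25.1 FPKM in TLR4-K810R. With LPS it was 6.37, 6.19 and 6.09 FPKM, 4.79, 4.31 and 6.23 FPKM, and 4.32, 4.80 and 4.05 FPKM in the same order. The LPS libraries were far below the mock libraries in every genotype, with means 4.33-fold, 4.17-fold and 5.13-fold lower. Mrc1 fell (-1.95, -1.88 and -2.12) with an SE of 0.13 each. Its LPS level in TLR4-K810R was below that in TLR4-WT in every library, a difference of -0.42 ± 0.13, which was not called.

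Mertk, the kinase of apoptotic cell uptake, was at 32.2, 23.4 and 21.3 FPKM in mock and 15.9, 14.02 and 8.65 FPKM in LPS libraries of TLR4-WT. In TLR4-K730R the values were 32.0, 30.8 and 26 FPKM against 7.12, 6.18 and 13.5 FPKM, and in TLR4-K810R 20.2, 19.9 and 25.8 FPKM against 6.12, 6.98 and 5.03 FPKM. LPS libraries were lower throughout, and the highest TLR4-WT mock library also held a first-exon event that no other library listed. Mertk fell by 1.69 ± 0.25 in TLR4-K730R and by 1.70 ± 0.25 in TLR4-K810R. The TLR4-WT difference of -0.96 ± 0.25 was called with all libraries and was lost without mock replicate 1 (-0.79), mock replicate 2 (-1.01) or LPS replicate 3 (-0.72), and with median-of-ratios scaling (-0.65). After LPS the 3 TLR4-K810R libraries were below all TLR4-WT libraries, a difference of -0.94 ± 0.25, which was not called, though it was with library weights (-1.10), under which 366 genes were called in place of 13. Its levels rest on first exons, since its last-exon sum was 0 in 17 of the 18 libraries.

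Stab1, the clearance receptor stabilin-1, had the largest SE. It was at 62.4, 37.5 and 68.8 FPKM in mock and 28.5, 25.5 and 28.7 FPKM in LPS libraries of TLR4-WT, and at 78.9, 59.9 and 25.2 FPKM against 21.5, 21.0 and 25.4 FPKM in TLR4-K730R. In TLR4-K810R the mock libraries spread from 31.5 over 48.3 to 135 FPKM and the LPS libraries read 38.3, 19.6 and 25.95 FPKM. The differences of -0.96, -1.10 and -1.11 (SE 0.45 each) were not called, and the one in TLR4-K730R was -1.57 and called without mock replicate 3, which lies within the LPS range. Cd163, the haemoglobin scavenger, was listed in 6 of the 18 libraries and at 0 in the others. The libraries that listed it were 1 of TLR4-WT mock (0.96 FPKM), 1 of TLR4-WT LPS (0.77), 2 of TLR4-K730R mock (0.79 and 0.68), 1 of TLR4-K730R LPS (0.52) and 1 of TLR4-K810R mock (0.55), all below the 1 FPKM needed for a test.

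Between genotypes the members apart from Marco gave no call with all libraries weighted equally. In mock-treated TLR4-K730R against TLR4-WT limma called 0 of 9, beside 0.268% of all genes, and 3 members and 747 genes were at an unadjusted p below 0.05. With LPS it called 0 of 9 in TLR4-K730R, beside 0.0% of all genes, with 0 members and 746 genes at an unadjusted p below 0.05. In TLR4-K810R with LPS it called 0 of 9, beside 0.134% of all genes, with 5 members and 2118 genes at an unadjusted p below 0.05. For the LPS response of TLR4-K730R against that of TLR4-WT it called 0 of 9, beside 0.0412% of all genes, with 1 member and 681 genes at an unadjusted p below 0.05. Both LPS comparisons share the TLR4-WT LPS libraries, and the response of TLR4-K730R uses the mock and LPS libraries of both genotypes. All come from the same fit, so they are not independent of each other.

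The share that one exon holds of the summed first-exon or last-exon FPKM of a gene was also compared. These shares come from the same events as the gene levels, and the split within a sum did not enter the level. Msr1 makes a longer form with a cysteine-rich domain (458 residues in the annotation) and a shorter form without it (354 residues), which end in different last exons. The last exon of the shorter form, at chr8:39603454-39605982 in GRCm38, held most of the last-exon FPKM. Its share was 80.6 to 83.7% in TLR4-WT, 73.4 to 82.7% in TLR4-K730R and 79.2 to 88.7% in TLR4-K810R mock libraries, and 81.2 to 99.8%, 89.4 to 99.7% and 87.5 to 99.7% with LPS. The last exon of the longer form was at 7.60 to 18.2 FPKM in mock libraries. With LPS it was at 0.16 to 2.77 FPKM in TLR4-WT replicates 1 and 2, TLR4-K730R replicates 1 and 3 and TLR4-K810R replicate 3. In the other LPS libraries it was at 21.3 to 39.6 FPKM, above every mock library. A mean change of the share thus does not hold for each LPS library alike. Mock and LPS ranges of the share overlapped in TLR4-WT and TLR4-K810R and were apart in TLR4-K730R. The share was 11.9 percentage points higher with LPS over the genotypes (exact permutation test within genotype, two-sided, 8000 arrangements, p = 0.00225, adjusted over 5 shares p = 0.0113, against a threshold of 0.05), and the smallest p the design allows is 0.00025. Without any one replicate number the difference was 10.9 to 12.7 points. The smallest exact p that the 216 arrangements then allow is 0.00926, or 0.0463 for a single share adjusted over 5, so the loss of the call there says little about stability.

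**Figure D3:**
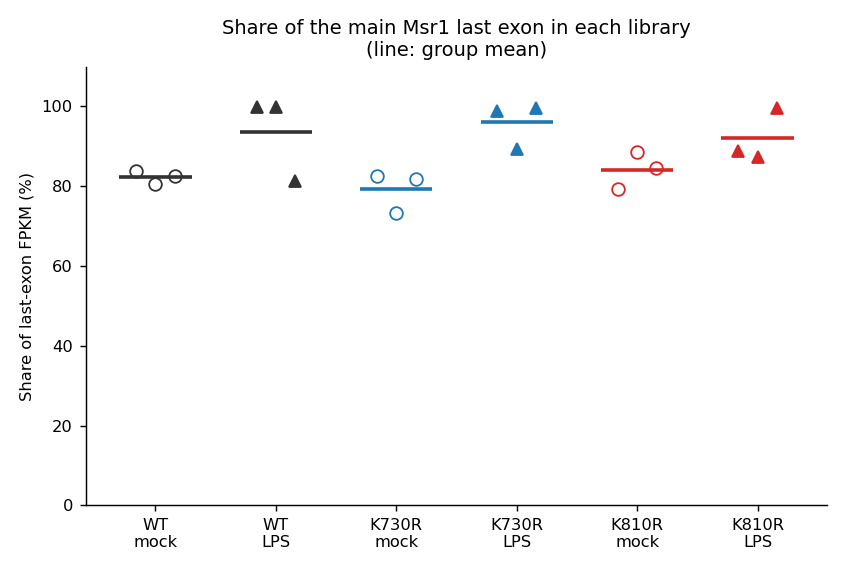
Share (%) of the Msr1 last-exon FPKM held by the last exon of the shorter form in each of the 18 libraries, with the group mean as a line. The mock libraries lie between 73.4 and 88.7% and the LPS libraries between 81.2 and 99.8%, and 1 TLR4-WT and 1 TLR4-K810R LPS library, at 81.2 and 87.5%, lie within the mock range.

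The other 4 shares did not pass that threshold. The main Stab1 first exon differed by -29.3 points with LPS (adjusted p = 0.0738 by the exact permutation test), after 11.6 to 78.4% in mock libraries of the 3 genotypes. The Cd36 first exon (-1.77 points, exact adjusted p = 0.253), the Scarb1 first exon (5.74 points, exact adjusted p = 0.387) and the Stab1 last exon (4.26 points, exact adjusted p = 0.539) lay further from it. Among skipped exons, looked at after the values were seen and given with no test, the 129-base Scarb1 exon at chr5:125281105-125281233 was included in 0.47 to 98.2% of its transcripts by library (median 69.9%). The low end was 2 TLR4-K730R libraries, mock replicate 3 at 0.47% and LPS replicate 3 at 9.19%, and the other 16 lay at 58.8 to 98.2%. Its inclusion gives the receptor of 509 residues and its skipping the form with another cytoplasmic tail, of 506 residues. The 56-base Msr1 exon at chr8:39627699-39627754 was included in at most 0.54% in the 9 mock libraries and in 11.1 to 13.7% in 5 of the 9 LPS libraries, which came from all 3 genotypes, and in at most 0.12% in the other 4. The Cd36 and Cd68 exons were included in 90.8 to 99.6% and 86.8 to 94.7% by library. The 219-base Marco exon at chr1:120494044-120494262 was included in 84.3 to 100% of its transcripts by library.

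The genes whose log2(FPKM + 1) level ran most like that of Marco over the 18 libraries were Retnla (Pearson's r = 0.85), H2-D1 (0.83), Ly9 (0.82), Ifi27l2a (0.81) and H2-M3 (0.80). Retnla encodes a secreted protein of alternatively activated macrophages, H2-D1 a class I MHC chain and Ifi27l2a an interferon-induced protein. Retnla averaged 30.9, 17.8 and 2.53 FPKM in mock-treated TLR4-WT, TLR4-K730R and TLR4-K810R and 22.7, 18.2 and 2.97 FPKM with LPS. The most opposed genes were Tmem98 (-0.89), Grb10 (-0.89), Racgap1 (-0.88), Gpr39 (-0.87) and Ccna2 (-0.86), of which Racgap1 and Ccna2 act in cell division. Grb10, an adaptor of growth factor receptors, averaged 1.32, 2.51 and 9.69 FPKM in the mock groups in the same order. Among the members, Scarb2 had the most negative correlation with Marco (-0.61) and Msr1 the most positive (0.48). After the mean of each treatment was removed, Scarb2 was at -0.60, Mertk at 0.46 (from -0.13), Mrc1 at 0.45 (from -0.30) and Msr1 at 0.38, so the order of the positive ones changed. The points share the 6 groups, so these correlations describe the libraries and are given without a p.

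Related genes were counted in 4 lists, written with earlier results of these data known and given as a description. Their LPS counts stand beside the shares of all genes above, which were 10.4% higher and 23.9% lower in TLR4-WT, 9.32% and 26.5% in TLR4-K730R, and 9.08% and 19.7% for TLR4-K810R. Of 27 other scavenger and uptake receptors 13 were tested, and in TLR4-WT 3 were called higher and 3 lower with LPS, with a median of -0.32. Olr1, the oxidised lipoprotein receptor LOX-1, rose by 3.04, 3.25 and 2.71 in TLR4-WT, TLR4-K730R and TLR4-K810R, Scarf1, a receptor for acetylated lipoproteins, by 1.78, 2.0 and 2.35, and Cxcl16, a chemokine that is also a membrane scavenger receptor, by 1.28, 1.95 and 1.81. Lrp1, a large endocytic receptor, fell (-1.31, -1.63 and -1.19), as did Cd5l, a secreted protein of the scavenger receptor cysteine-rich family (-1.29, -1.06 and -1.15). In TLR4-K730R 3 were called higher and 4 lower, and in TLR4-K810R 3 and 3. With median-of-ratios scaling the 3 genotypes gave 3 and 2, 3 and 2, and 3 and 3. Colec12, a collagen-like scavenger receptor, had differences of -0.75, -1.05 and -1.15 (called in both mutants, and lost in TLR4-K730R without any of 2 of the 6 libraries and in TLR4-K810R without 1). The list medians moved with the scaling, and in TLR4-WT median-of-ratios scaling gave 0.00 for this list, -0.42 for the efferocytosis, -0.35 for the lysosomal and 0.08 for the transcription factor list described next. The LPS calls of the genes named from the 4 lists held under it, with the exceptions of Colec12 and Adam17 in TLR4-K730R.

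Cd5l and Scarf1 were also lower in mock-treated TLR4-K810R than in TLR4-WT. They were the 2 genes called of the 13 tested, where 1.58% of all genes were called in either direction. With LPS Cd5l was the 1 gene called of the 13, beside 0.134% of all genes. Cd5l averaged 176 ± 20.0 FPKM in TLR4-WT and 76.8 ± 5.89 FPKM in TLR4-K810R (SD, n = 3), a difference of -1.18 ± 0.16 (SE), and 71.8 ± 12.5 and 34.0 ± 0.987 FPKM with LPS, a difference of -1.04 ± 0.16, both called. Scarf1 averaged 16.2 ± 2.24 and 10.3 ± 0.375 FPKM in the mock groups, a difference of -0.59 ± 0.11. The mock call of Cd5l was kept without any 1 of the 6 libraries compared, whereas its LPS call and the call of Scarf1 were each lost without any of 5 of the 6 (-0.94 to -1.19 and -0.50 to -0.69 over the 6). Between TLR4-K730R and TLR4-WT limma called 0 genes of this list, with 2 in mock and 0 with LPS at an unadjusted p below 0.05.

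Of 29 efferocytosis genes, which serve the uptake of apoptotic cells as Mertk does, 26 were tested. With LPS 5 were called higher and 14 lower in TLR4-WT, 3 and 15 in TLR4-K730R, and in TLR4-K810R 3 and 15, with medians of -0.74, -0.79 and -0.83. With median-of-ratios scaling these were 6 and 11, 6 and 10, and 3 and 12. Axl, the sister kinase of Mertk, rose by 2.03, 1.63 and 1.20 while Mertk fell, and Gas6, a ligand of both, fell (-2.37, -2.71 and -2.37). The matrix protein gene Thbs1 rose by 2.99, 3.25 and 2.60 and Cd47, which restrains uptake, by 1.91, 1.81 and 1.45. Cd300a, a receptor for phosphatidylserine, fell (-2.97, -3.08 and -2.81), as did Itgb5, an integrin chain that binds the bridging protein MFGE8 (-2.33, -2.70 and -2.0). Cd300lb (-2.55, -2.01 and -1.69), Havcr2, which encodes TIM-3 (-2.04, -2.11 and -1.76), and Elmo1, which helps to activate Rac (-1.87, -2.06 and -1.98), fell too, and Xkr8, a lipid scramblase, had 2.69, 2.35 and 2.01, of which the first was called and was lost without any of 4 of the 6 libraries. The Axl call in TLR4-K810R was lost without any of 2 of the 6. With median-of-ratios scaling Xkr8 was called in TLR4-K730R too (2.66). In the 6 comparisons of genotypes or of their responses limma called 0 genes of this list, with 1 to 8 of 26 at an unadjusted p below 0.05, beside 681 to 2118 of all 9707 genes. The 0 of LPS-treated TLR4-K810R against LPS-treated TLR4-WT became 3 without LPS replicate 3 of TLR4-WT.

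Of 23 lysosomal, lipid and haem genes 22 were tested, and LPS gave 5 higher and 11 lower calls in TLR4-WT, 5 and 12 in TLR4-K730R, and in TLR4-K810R 6 and 9, with medians of -0.68, -0.62 and -0.56. With median-of-ratios scaling the counts were 6 and 7, 6 and 6, and 6 and 6, so the lean to lower calls was mostly lost. The genes of the intracellular fatty acid binding proteins fell, Fabp4 with differences of -3.40, -3.47 and -3.35 and Fabp5 with -2.33, -2.54 and -2.18, and so did the acid lipase gene Lipa (-2.55, -2.75 and -2.63). Npc1, which exports lysosomal cholesterol (-1.56, -1.63 and -1.38), and the protease gene Ctsd (-1.47, -1.66 and -1.35) fell as well. Acsl1, which activates fatty acids, rose by 3.32, 3.25 and 3.82, the cholesterol exporter gene Abca1 by 1.21, 1.36 and 1.78, and the haem oxygenase gene Hmox1 by 1.19, 1.33 and 1.81. Hp, which encodes haptoglobin, rose by 1.89, 1.30 and 3.15 while Cd163 stayed near 0. Acsl1 was lower in mock-treated TLR4-K810R than in TLR4-WT, at 12.9 ± 0.986 against 20.8 ± 2.996 FPKM (SD, n = 3) and -0.65 ± 0.13, a call that was lost without any of 5 of the 6 libraries (-0.56 to -0.76 over the 6). It was the 1 gene called of the 22 tested in this comparison, where 1.58% of all genes were called.

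Of 23 transcription factors and sheddases of these receptors 19 were tested, with 1 higher and 7 lower calls in TLR4-WT, 2 and 8 in TLR4-K730R, and in TLR4-K810R 3 and 7, and medians of -0.25, -0.35 and -0.17. With median-of-ratios scaling the counts were 4 and 6, 3 and 6, and 6 and 6. Pparg, a nuclear receptor that activates Cd36, fell (-3.76, -3.64 and -3.09), as did its partner gene Rxra (-1.25, -1.20 and -0.91) and Tfeb, a regulator of lysosomal genes (-2.26, -2.37 and -1.94). Rhbdf2, which is needed for the sheddase ADAM17 to mature, rose by 1.65, 1.89 and 1.44. Adam10, another sheddase, fell (-1.19, -1.79 and -1.5), as did the transcription factor gene Bhlhe40 (-1.63, -1.55 and -1.35). Ppard was called in TLR4-K730R (0.57, 0.86 and 0.68), a call lost without mock replicate 1, and Spic in TLR4-K810R (0.69, 0.38 and 1.06). With median-of-ratios scaling Ppard was called in all 3 genotypes (0.88, 1.24 and 0.92) and Spic in TLR4-WT too (0.86). Adam17 was called lower in TLR4-K730R and higher in TLR4-K810R (-0.38, -0.60 and 0.49), the latter lost without any of 5 of the 6 libraries. In the same 6 comparisons limma called 0 genes of this list, with 0 to 5 of 19 at an unadjusted p below 0.05.

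**Figure D4:**
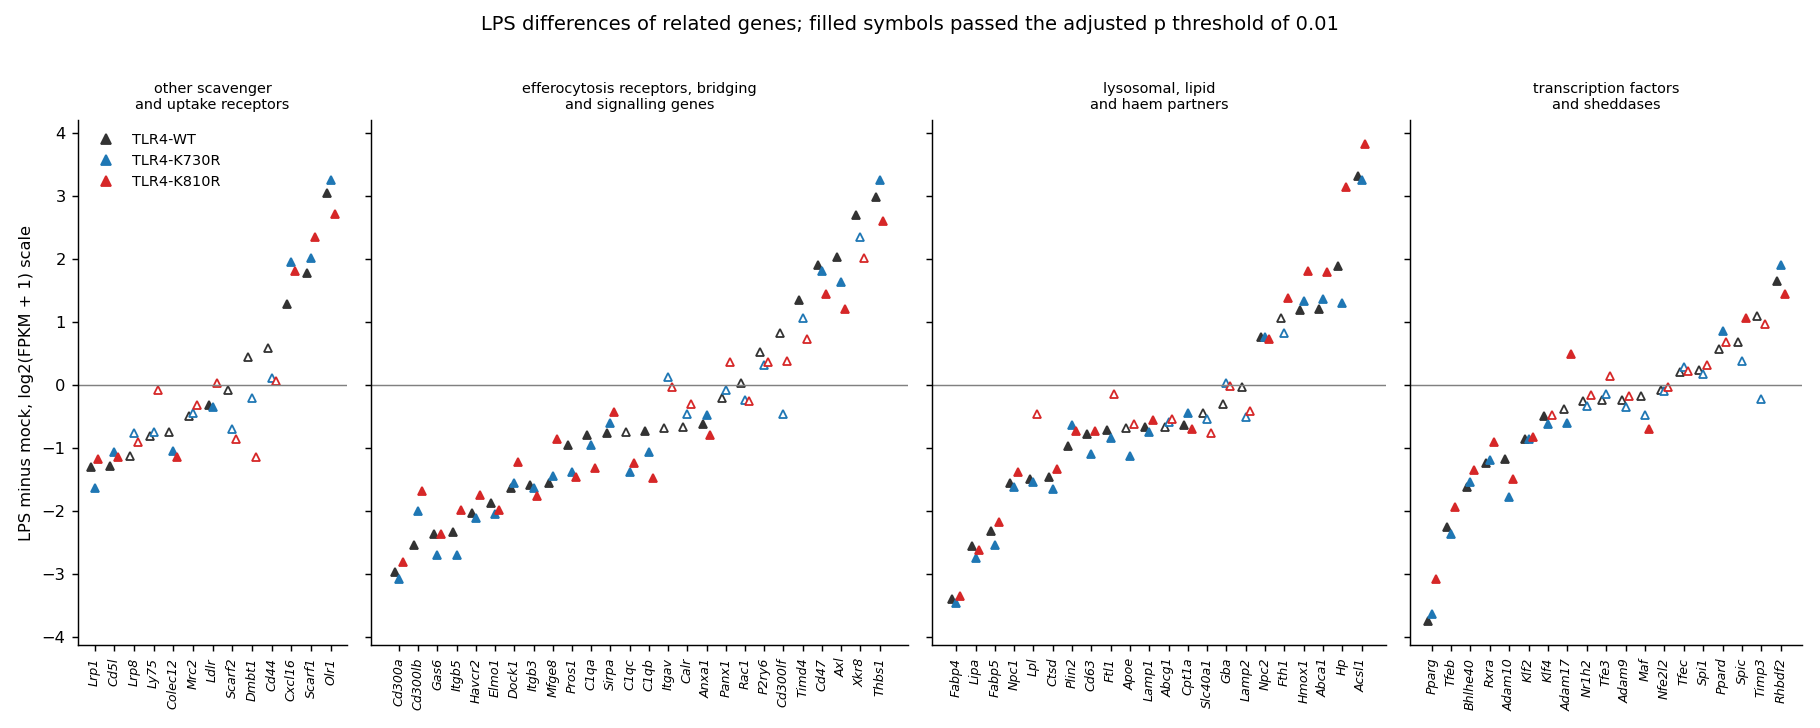
LPS minus mock differences on the log2(FPKM + 1) scale for the tested genes of the 4 related lists, ordered by the TLR4-WT value, with a triangle for each genotype, filled where the adjusted p passed 0.01. Olr1 lies at 2.71 to 3.25 and Pparg at -3.76 to -3.09 over the genotypes.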

How the data were processed

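FPKM values of transcript events of 20 kinds were deposited by the authors, in 80071 to 90401 rows per library. An event without expression has no row, and a transcript counts in several events. No read counts are given, so the depth is unknown and count tests were not possible. The submitters' processing notes name hg18, a human build, while the coordinates and Ensembl numbers were those of mouse GRCm38 (14126 of 14138 numbers found in GENCODE). The aligner is not given in the sources used here.

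The gene value was the larger of summed first-exon and summed last-exon FPKM, from events on the strand of and overlapping the gene, which dropped 5.99% of that FPKM. Genes that reached 1 FPKM in 3 or more of the 18 libraries were tested with limma 3.58.1 (R 4.3.3) on log2(FPKM + 1), a pseudocount that understates the change of low genes, with all 6 groups in one fit, an intensity trend, and p-values adjusted by Benjamini-Hochberg over 9707 genes. Calls used the study's threshold, an adjusted p of 0.01. The fit was tested on simulated data. Exon shares were compared by an exact permutation test within genotype (threshold 0.05). Python 3.11.15 with pandas 2.3.3 gave the gene values.

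Members, lists and markers were chosen with earlier results of these data known. Named genes are the members, Tlr4, markers, from each list at most the 4 called genes with the largest difference in each direction, and the 5 genes most and 5 least like Marco. Alternatives covered the pseudocount, filter, scaling, trend, weights, replicate block, libraries in the fit, exon sums, events kept, threshold and left-out libraries. Leaving out LPS replicates 2 and 3 of TLR4-K810R together was added after seeing the data. Same-numbered libraries showed no shared deviation and were not treated as pairs. A gene that the naming rule picked is not reported here.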

Additional observations from a re-analysis of the deposited data

Results flagged for a closer look

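The LPS response of Marco differed between TLR4-K810R and TLR4-WT by an interaction test in limma: 1.20 ± 0.18 (SE) on the log2(FPKM + 1) scale, from 1.21 ± 0.13 in TLR4-K810R and 0.00 ± 0.13 in TLR4-WT. Marco was higher with LPS in 3 of 3 TLR4-K810R libraries, and the LPS and mock libraries of TLR4-WT overlapped. The call held in 9 of 25 settings, the main one included. It was lost with median-of-ratios scaling (1.14), with the replicate block (1.20), and on leaving out any 1 of 11 of the 12 libraries (1.05 to 1.25).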

How the results depend on the processing

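Of the member counts in the 9 comparisons, 7 stayed within 1.5 times of their value under every alternative. With LPS, TLR4-K810R against TLR4-WT gave 0 members called, and 1 with median-of-ratios scaling, last-exon sums only or a threshold of 0.05, and 2 (Marco and Mertk) with library weights. The difference in LPS response between TLR4-K810R and TLR4-WT gave 1 member, Marco, and 0 with median-of-ratios scaling, without an intensity trend, with the replicate block and with only the groups compared in the fit. The causes were not tested. Leaving out 1 library at a time gave 5 to 6 members called for LPS in TLR4-WT, 7 to 8 in TLR4-K730R, 4 to 5 in TLR4-K810R, 0 to 1 with LPS for TLR4-K810R against TLR4-WT, and 0 to 1 for its LPS response. It gave 1 for TLR4-K810R against TLR4-WT in mock and 0 in the other comparisons. The 1 member gained with LPS was Marco, at -0.75 without LPS replicate 3 of TLR4-WT, and Marco was also gained for LPS in TLR4-K730R without its LPS replicate 1 (0.55). Leaving out LPS replicates 2 and 3 of TLR4-K810R, which list lung genes (up to 34.2 FPKM in sum), left 1 library there, assumed to vary like the other groups. Its LPS response of Scarb2 was then -0.43 (-0.39 with all) and that of Marco exceeded the TLR4-WT response by 1.27 (1.20 with all). Neither was called with the lone library, which says nothing about stability. Leaving out a replicate number gave Msr1 shares 10.9 to 12.7 points higher with LPS, Stab1 first-exon shares -37.0 to -14.5, Cd36 -2.64 to -1.29, Scarb1 2.79 to 8.64 and Stab1 last-exon shares -0.26 to 8.09. The Msr1 call was lost each time, in a design that leaves 216 arrangements. No called result reversed.

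Same-numbered libraries did not deviate together (0 of 45 correlations over 0.1, from -0.32 to 0.0993). This cannot tell how the replicates were made, which is not given. With the replicate block 6, 7 and 5 members were called for LPS in TLR4-WT, TLR4-K730R and TLR4-K810R, as without it, and all called genes went from 13 to 3 in the LPS comparison of TLR4-K810R with TLR4-WT and from 26 to 11 in the mock comparison of TLR4-K730R. The former count was 366 with library weights and 0 with only the groups compared, and that of TLR4-K810R in mock was 153, or 33 with only the groups compared. Depth is unknown and limits low genes such as Cd163.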
